A study of Mus musculus with 8 samples.

Results

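Bulk RNA sequencing was run on Lacun3 cells, an established line from a mouse lung adenocarcinoma, and the 28 genes described here encode enzymes of cholesterol synthesis, the transcription factor SREBP2 with its control proteins, and proteins that sense, transfer, store or limit the uptake of cholesterol. The genes were chosen by symbol, with earlier results of these data known, from 56884 annotated genes. Of the annotated genes 13707 had enough counts to be tested, and 27 of the 28 were among them. The STK11 KO group was a Lacun3 line in which Stk11 had been disrupted with CRISPR, and the STK11 WT group was the parental line. Each had 4 libraries, which the submitters call independent biological replicates, from untreated cultures grown in the same medium (DMEM with fetal bovine serum, penicillin and streptomycin) and harvested in logarithmic growth. The labels name 1 edited line and do not say whether it is a single clone, so the values describe a difference between these lines.

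LKB1, the product of Stk11, is a tumour suppressor that switches on AMPK, a kinase known to restrain lipid synthesis. Cholesterol is built from acetyl-CoA by way of mevalonate, farnesyl diphosphate, squalene and lanosterol. When sterols are scarce in the endoplasmic reticulum, SCAP escorts the SREBP2 precursor to the Golgi, where proteases release a transcription factor that raises the genes of the pathway; INSIG proteins hold SCAP back when sterols are plentiful. LXR receptors respond to oxidised sterols and raise genes of cholesterol export. Serum lipoproteins in the medium are an outside source of cholesterol for cultured cells.

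Libraries held 21441601 to 25715008 counts in the knockout group and 18837263 to 21101904 in the wild-type group. Values are given as CPM, the usual depth-scaled count, with library sizes after TMM scaling, and 1 count was worth 0.0388 to 0.0515 CPM. Stk11 mRNA had 35.4, 35.1, 33.5 and 35.0 CPM in knockout libraries 1 to 4, against 64.9, 67.1, 68.4 and 64.7 CPM in wild-type libraries 1 to 4, a log2 fold change of -0.93 ± 0.06 (SE). Counts over the whole gene cannot tell edited from intact transcripts. The 6 epithelial markers, of which 5 were above 1 CPM, summed to 7699 to 8607 CPM in knockout and 8158 to 8589 CPM in wild-type libraries. Of the fibroblast, leukocyte and endothelial markers 1 gene per list was above 1 CPM in either group, and Lum, Adgre1 and Kdr were at 0. The 5 leukocyte markers summed to 13.1 to 25.3 CPM in knockout and 46.4 to 52.9 CPM in wild-type libraries, the 5 fibroblast markers to 2.03 to 3.07 CPM in knockout and 3.86 to 5.62 CPM in wild-type libraries, and the 4 endothelial markers to 3.42 to 4.81 CPM in knockout and 1.05 to 1.85 CPM in wild-type libraries. Their part in the results was not tested, and in bulk samples fewer cells of a type and less RNA per cell cannot be told apart. Knockout replicate 3 stood apart within its group: each pair with it had a chi-square of counts per degree of freedom of 14.1 to 20.4, against 3.25 to 9.51 for all other pairs of the same genotype.

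Most of the genes that make cholesterol were higher in the knockout line. Of the 27 tested genes, 18 rose, 3 fell and 6 did not pass the test; their median log2 fold change was 0.63. Among all tested genes, 68.0% passed, 34.4% upward and 33.6% downward, and the median log2 fold change was 0.01. A gene is said to have risen or fallen where edgeR's quasi-likelihood test gave a Benjamini-Hochberg adjusted p under 0.05 over all 13707 genes; log2 fold changes are knockout over wild type. At least 2-fold rises numbered 6, Hmgcs1, Insig1, Msmo1, Lss, Cyp51 and Sqle, against 7.02% of all tested genes; no member fell by as much, against 9.41% of all tested genes. The 4 knockout values lay wholly above or below the 4 wild-type values in 20 of 27 members, against 60.6% of all tested genes. Together the 19 enzymes took 2609, 2169.6, 1799.6 and 2234 CPM in knockout libraries 1 to 4, against 1134, 1060.6, 1091 and 1009 CPM in wild-type libraries 1 to 4. Every knockout sum lay above every wild-type sum, and the ratio of the means was 2.05. Hmgcs1 alone made up 20.9% of the enzyme sum in the knockout and 11.5% in the wild type.

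**Figure D1:**
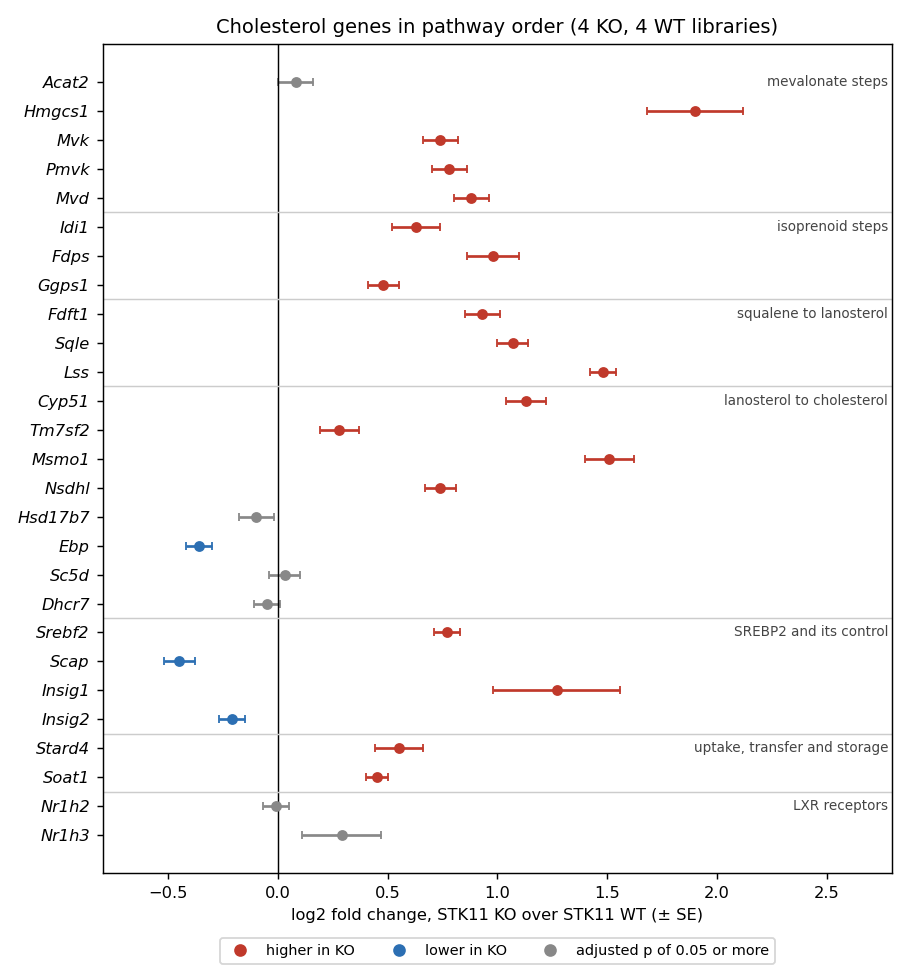
Log2 fold change, STK11 KO over STK11 WT, with its standard error (bars) for the 27 tested genes, ordered down the page along the pathway and then by role; red genes passed the test upward, blue ones downward and grey ones did not pass. Every enzyme from Hmgcs1 to Nsdhl lies right of 0, while Hsd17b7, Ebp, Sc5d and Dhcr7 lie between -0.36 and 0.03.

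The promoters of 3 members that rose are shown because they hold letters that match the core of a sterol regulatory element, the kind of site SREBP proteins bind, close to a CCAAT box, the site of the factor NF-Y with which SREBPs are known to act. Sequences are those of RefSeq on GRCm38.p6, given 5′ to 3′ on the strand of the gene, upstream of the annotated start and numbered from it. Capitals mark matches to the sterol element core (TCACNCCA, or TCACNCCAC where the ninth letter also matches) and CCAAT or its reverse complement ATTGG. The Hmgcs1 stretch (chr13:119690161-119690315, plus strand) covers positions -190 to -36, the Srebf2 stretch (chr15:82147079-82147168, plus strand) -190 to -101, and the Msmo1 stretch (chr8:64733624-64733768, minus strand) -190 to -46.
Hmgcs1: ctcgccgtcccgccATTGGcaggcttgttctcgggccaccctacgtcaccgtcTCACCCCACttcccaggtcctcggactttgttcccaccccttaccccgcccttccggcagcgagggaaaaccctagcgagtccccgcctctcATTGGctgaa
Srebf2: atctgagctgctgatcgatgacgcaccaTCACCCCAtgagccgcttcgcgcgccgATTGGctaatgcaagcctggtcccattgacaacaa
Msmo1: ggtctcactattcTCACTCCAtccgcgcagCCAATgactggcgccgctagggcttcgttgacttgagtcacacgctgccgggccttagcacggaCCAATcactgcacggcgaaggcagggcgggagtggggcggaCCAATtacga

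In Hmgcs1 the longer core, TCACCCCAC, begins at -137, between ATTGG at -176 and at -45. In Srebf2 the shorter core begins at -162 and ATTGG at -135, and in Msmo1 the shorter core begins at -177 with CCAAT at -160, -96 and -55. Of the 28 members 24 had an entry in the promoter table, which spans 250 bases before to 50 after each start, and both strands were searched. The shorter core occurred in 3 of the 14 members with an entry that rose, in 0 of the 10 others and in 4.97% of all 27025 genes; the longer core, which contains the shorter, occurred in Hmgcs1 and in 1.44% of genes. CCAAT occurred in 14 of the 14 that rose, in 6 of the 10 others and in 41.1% of genes, and the GC box GGGCGG in 12 of 14, 8 of 10 and 38.2% of genes. These are descriptions of letters in a window, with no test, and a match is not a shown binding site.

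The mevalonate steps turn acetyl-CoA into the first isoprenoid, and 4 of the 5 genes measured here rose, against 34.4% of all tested genes. Acat2, the cytosolic thiolase that joins acetyl-CoA units, had 50.9, 49.4, 37.2 and 45.0 CPM in knockout libraries 1 to 4 and 43.0, 44.8, 41.4 and 42.6 CPM in wild-type libraries 1 to 4. Knockout replicate 3 lay below every wild-type library and the other 3 knockout libraries lay above all of them. The groups thus overlapped, and the gene did not pass (log2 fold change 0.08 ± 0.08, SE; 95% interval -0.08 to 0.25; edgeR adjusted p = 0.351). Without knockout replicate 3 the log2 fold change was 0.17 and the adjusted p 0.0132, within a range of 0.0132 to 1 over the alternatives. Its paralogue Acat3, named for that relation and likewise uncertain where reads match both genes, was counted at 3.34 ± 0.920 CPM in knockout and 4.63 ± 0.984 CPM in wild-type libraries (SD, n = 4 each). Acat3 passed downward with overlapping groups (log2 fold change -0.49 ± 0.19, SE, and edgeR adjusted p = 0.0235).

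Hmgcs1, the synthase that makes HMG-CoA, had the largest fold change of the 27 tested genes. The gene lies at chr13:120151915-120169796 of GRCm39, the build of the count table. It had 617, 451, 297 and 473 CPM in knockout libraries 1 to 4, against 134, 123, 124 and 111 CPM in wild-type libraries 1 to 4. All knockout libraries were above all wild-type libraries, and the knockout libraries also differed widely among themselves, with replicate 1 highest and replicate 3 lowest. The fold change was 3.73 (log2 1.90 ± 0.22, SE; edgeR adjusted p = 0.000243).

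The 3 enzymes that phosphorylate and decarboxylate mevalonate all rose. Mvk, mevalonate kinase, had 24.7, 23.6, 23.9 and 22.1 CPM in knockout libraries 1 to 4, against 14.0, 15.0, 13.9 and 13.4 CPM in wild-type libraries 1 to 4. Pmvk, the kinase that acts next, averaged 42.3 ± 4.12 CPM in knockout and 24.5 ± 2.07 CPM in wild-type libraries, and Mvd, the decarboxylase, averaged 47.6 ± 5.80 CPM in knockout and 25.8 ± 1.16 CPM in wild-type libraries (SD, n = 4 each). None of the 3 had overlapping groups. Among all tested genes 34.4% rose, and 60.6% had groups without overlap. Their log2 fold changes were 0.74 ± 0.08, 0.78 ± 0.08 and 0.88 ± 0.08 (SE), and the largest edgeR adjusted p was 1.62e-08, for Mvk. Their intervals overlapped (95% 0.58 to 0.90 for Mvk and 0.72 to 1.04 for Mvd).

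All 3 isoprenoid genes rose, against 34.4% of all tested genes. Idi1, the isomerase that balances the pair of isoprenoid building blocks, had 23.2, 21.5, 16.5 and 25.3 CPM in knockout libraries 1 to 4, against 13.3, 14.2, 15.9 and 12.2 CPM in wild-type libraries 1 to 4. Knockout replicate 3 exceeded the highest wild-type library only narrowly (log2 fold change 0.63 ± 0.11, SE; edgeR adjusted p = 6.16e-05). Fdps, which makes farnesyl diphosphate, had 213, 185, 144 and 177 CPM in knockout libraries 1 to 4, against 105, 86.3, 92.5 and 80.0 CPM in wild-type libraries 1 to 4, a 1.97-fold rise (edgeR adjusted p = 1.48e-05). Ggps1, which extends farnesyl diphosphate for protein prenylation and so leads away from sterols, averaged 46.2 ± 3.20 CPM in knockout and 33.2 ± 1.32 CPM in wild-type libraries (SD, n = 4 each), a 1.39-fold rise (edgeR adjusted p = 1.06e-06). The 95% interval of the log2 fold change was 0.73 to 1.24 for Fdps and 0.34 to 0.61 for Ggps1; the difference between these genes was not tested.

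From farnesyl diphosphate to lanosterol all 3 genes rose, against 34.4% of all tested genes. Fdft1, squalene synthase, which commits carbon to sterols, had 158, 140.0, 111 and 132 CPM in knockout libraries 1 to 4, against 74.5, 70.6, 69.5 and 69.2 CPM in wild-type libraries 1 to 4. Sqle, squalene epoxidase, had 235, 187, 195 and 202 CPM in knockout libraries 1 to 4, against 104, 100.1, 97.3 and 89.0 CPM in wild-type libraries 1 to 4. Lss, which folds the epoxide into lanosterol, had 169, 154, 142 and 163 CPM in knockout libraries 1 to 4, against 58.0, 54.1, 59.8 and 53.5 CPM in wild-type libraries 1 to 4. In each of these genes the groups were far apart relative to the spread within them. The fold changes were 1.90 for Fdft1, 2.10 for Sqle and 2.79 for Lss, and the largest edgeR adjusted p was 5.9e-09, for Fdft1. Lss had the smallest adjusted p of all members, 2.21e-15. The Fdft1 gene overlaps the abundant lysosomal protease gene Ctsb by 774 bp on the opposite strand, and Ctsb averaged 444 CPM in knockout and 554 CPM in wild-type libraries. Ggps1 and Cyp51 likewise overlap the opposite-strand genes Arid4b and Akap9, by 257 and 166 bp; these neighbours are named for their position.

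Along the conversion of lanosterol to cholesterol the early genes rose and the late ones did not. Cyp51, the demethylase that acts first on lanosterol, had 224, 172, 164 and 189 CPM in knockout libraries 1 to 4, against 92.9, 77.4, 91.1 and 80.9 CPM in wild-type libraries 1 to 4. Msmo1, the oxidase that starts the removal of the remaining methyl groups, had 430.2, 363, 278 and 379 CPM in knockout libraries 1 to 4, against 131, 121, 134 and 123 CPM in wild-type libraries 1 to 4. Nsdhl, the dehydrogenase that works with Msmo1, had 85.5, 78.9, 73.0 and 81.0 CPM in knockout libraries 1 to 4, against 50.6, 52.6, 44.6 and 43.2 CPM in wild-type libraries 1 to 4. Groups did not overlap in any of the 3, and the fold changes were 2.19, 2.85 and 1.66 (largest edgeR adjusted p 8.99e-08, for Msmo1). Tm7sf2, a sterol reductase acting after Cyp51, ranged over 14.2 to 18.6 CPM in knockout and 13.5 to 15.1 CPM in wild-type libraries. Its groups overlapped through knockout replicate 3, and its rise was small (log2 fold change 0.28 ± 0.09, SE; edgeR adjusted p = 0.0119). Scaled by library size alone Tm7sf2 did not pass (adjusted p = 0.0679, within 0.000287 to 1 over the alternatives), and it shares 532 bp on the same strand with its neighbour Vps51.

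Hsd17b7, Ebp, Sc5d and Dhcr7 stand after Nsdhl in the route, and none of them rose. Hsd17b7, the ketosteroid reductase that completes demethylation, ranged over 29.1 to 37.0 CPM in knockout and 32.1 to 36.9 CPM in wild-type libraries. Ebp, the sterol isomerase, had 41.5, 37.6, 39.1 and 35.5 CPM in knockout libraries 1 to 4, against 51.7, 47.4, 50.2 and 47.4 CPM in wild-type libraries 1 to 4. Sc5d, the desaturase that follows, ranged over 70.3 to 93.8 CPM in knockout and 77.1 to 85.8 CPM in wild-type libraries. Ebp fell without overlap between groups (log2 fold change -0.36 ± 0.06, SE, and edgeR adjusted p = 3.72e-05), while the ranges of the other genes overlapped. The median absolute log2 fold change of all tested genes was 0.375, and 60.6% of them had groups without overlap. Dhcr7, a terminal reductase of the route, had 41.5, 37.5, 40.5 and 40.0 CPM in knockout libraries 1 to 4, against 41.1, 42.1, 41.4 and 41.0 CPM in wild-type libraries 1 to 4. The 95% intervals of the log2 fold change were -0.26 to 0.06 for Hsd17b7, -0.12 to 0.18 for Sc5d and -0.18 to 0.07 for Dhcr7, with edgeR adjusted p-values of 0.256, 0.738 and 0.444. With library size alone as the scaling, Hsd17b7 passed downward (adjusted p = 0.0355, within 0.0355 to 1 over the alternatives) and the Sc5d value turned to -0.058. All of these upper bounds lay below the intervals of Cyp51 (0.94 to 1.32), Msmo1 (1.27 to 1.75) and Nsdhl (0.59 to 0.88), whereas the interval of Tm7sf2 (0.08 to 0.47) overlapped that of Sc5d. The split at this point was chosen after the values were seen: 14 of the 15 enzymes from Acat2 to Nsdhl rose and none fell. Of the 4 after Nsdhl 0 rose and 1 fell. Among all tested genes 34.4% rose and 33.6% fell. The difference between these stretches was not tested.

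**Figure D2:**
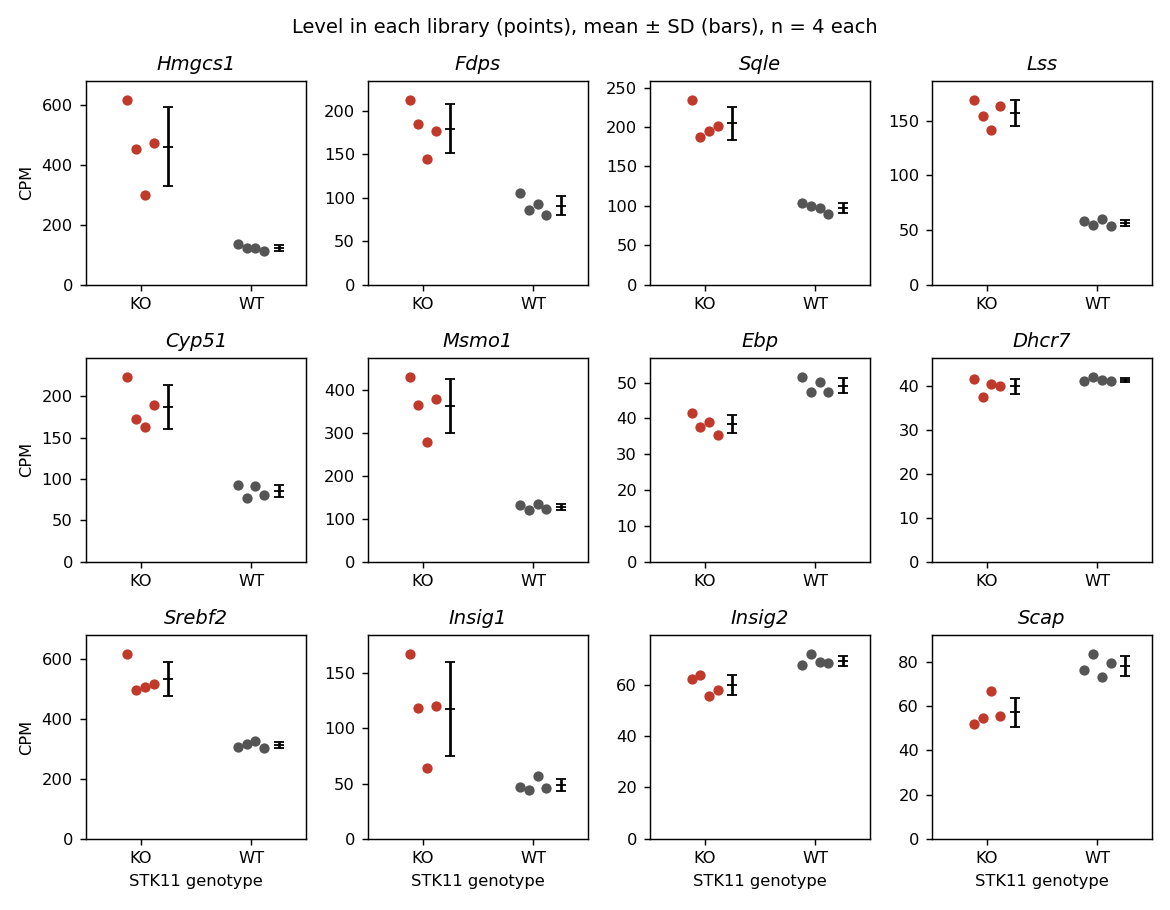
Level in CPM (vertical axis, from 0) of 12 genes in each of the 4 STK11 KO libraries (left, red) and the 4 STK11 WT libraries (right, grey), with replicates 1 to 4 from left to right and the mean ± SD as a bar beside them. The knockout points lie above the wild-type points for Hmgcs1, Fdps, Sqle, Lss, Cyp51, Msmo1, Srebf2 and Insig1 and below them for Ebp, Insig2 and Scap, and the groups overlap for Dhcr7.

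The genes that control SREBP2 moved in both directions: 2 of the 4 rose and 2 fell, against 34.4% and 33.6% of all tested genes. On GRCm39, Srebf2 lies at chr15:82031382-82089580, Scap at chr9:110162356-110214018, Insig1 at chr5:28276361-28283660 and Insig2 at chr1:121232082-121260318. Srebf2, which encodes SREBP2 itself, had 619, 499, 506 and 516 CPM in knockout libraries 1 to 4, against 307, 316, 326 and 305 CPM in wild-type libraries 1 to 4. Scap, the escort, had 51.9, 54.5, 67.0 and 55.5 CPM in knockout libraries 1 to 4, against 76.5, 83.8, 73.3 and 79.6 CPM in wild-type libraries 1 to 4. Srebf2 was higher and Scap lower in every knockout library than in any wild-type library, with knockout replicate 1 highest for Srebf2 and replicate 3 closest to the wild type for Scap. The log2 fold change was 0.77 ± 0.06 for Srebf2 and -0.45 ± 0.07 for Scap (SE; edgeR adjusted p = 3.57e-10 and 6.88e-06). These are levels of mRNA; the cleavage of SREBP2 that SCAP permits was not measured.

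The Insig genes, whose proteins both retain SCAP, changed in opposite directions. Insig1, which is itself a target of SREBP2, had 168, 118, 64.1 and 119.8 CPM in knockout libraries 1 to 4, against 47.1, 44.0, 56.6 and 46.4 CPM in wild-type libraries 1 to 4. Insig2, which is less dependent on SREBP2, had 62.2, 63.7, 55.5 and 58.0 CPM in knockout libraries 1 to 4, against 67.7, 72.0, 68.8 and 68.5 CPM in wild-type libraries 1 to 4. Insig1 varied more among knockout libraries than any other member in relation to its mean, with replicate 3 only slightly above the highest wild-type library. Its log2 fold change was 1.27 ± 0.29 (SE; edgeR adjusted p = 0.00777), and 1.48 without knockout replicate 3 (adjusted p = 0.000381, within 6.99e-06 to 0.0618 over the alternatives). Insig2 fell slightly, by a log2 fold change of -0.21 ± 0.06 (SE; edgeR adjusted p = 0.00278).

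Proteins that handle cholesterol after synthesis or uptake had 2 tested genes here, and both rose, against 34.4% of all tested genes. In the longer list of transport, storage and LXR target genes below, 3 of 16 tested genes rose and 10 fell. Stard4, a soluble sterol carrier, had 95.0, 85.0, 63.9 and 88.4 CPM in knockout libraries 1 to 4, against 60.4, 53.8, 61.8 and 51.0 CPM in wild-type libraries 1 to 4. Soat1, which esterifies cholesterol for storage in droplets, had 295, 273, 311 and 298 CPM in knockout libraries 1 to 4, against 211, 222, 216 and 210.1 CPM in wild-type libraries 1 to 4. Neither gene had overlapping groups, nor did 60.6% of all tested genes. The fold changes were 1.46 for Stard4 and 1.37 for Soat1 (edgeR adjusted p = 0.000563 and 8.72e-08). Knockout replicate 3 was the lowest knockout library for Stard4 and the highest for Soat1. Mylip, the LXR-induced ubiquitin ligase that degrades lipoprotein receptors, had 0 counts in all 8 libraries, which allows up to 0.0338 CPM in the knockout and 0.0358 CPM in the wild-type group (3 counts over the group, covering counting error only).

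Neither LXR receptor gene passed the test, which 68.0% of all tested genes passed. Nr1h2, which encodes LXRβ, had 65.8, 67.0, 79.5 and 67.0 CPM in knockout libraries 1 to 4, against 69.3, 68.6, 70.4 and 73.4 CPM in wild-type libraries 1 to 4. Nr1h3, which encodes LXRα, had 3.22, 4.85, 5.05 and 3.52 CPM in knockout libraries 1 to 4, against 2.57, 4.36, 3.35 and 3.40 CPM in wild-type libraries 1 to 4. The groups overlapped for both, and knockout replicate 3 was the highest of all libraries for both. The 95% intervals of the log2 fold change were -0.14 to 0.12 for Nr1h2 and -0.07 to 0.66 for Nr1h3 (edgeR adjusted p = 0.896 and 0.147), the wider one belonging to the gene with fewer counts. Without wild-type replicate 2 Nr1h3 passed upward, at a log2 fold change of 0.44 (adjusted p = 0.0489, within 0.0489 to 1 over the alternatives).

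**Figure D3:**
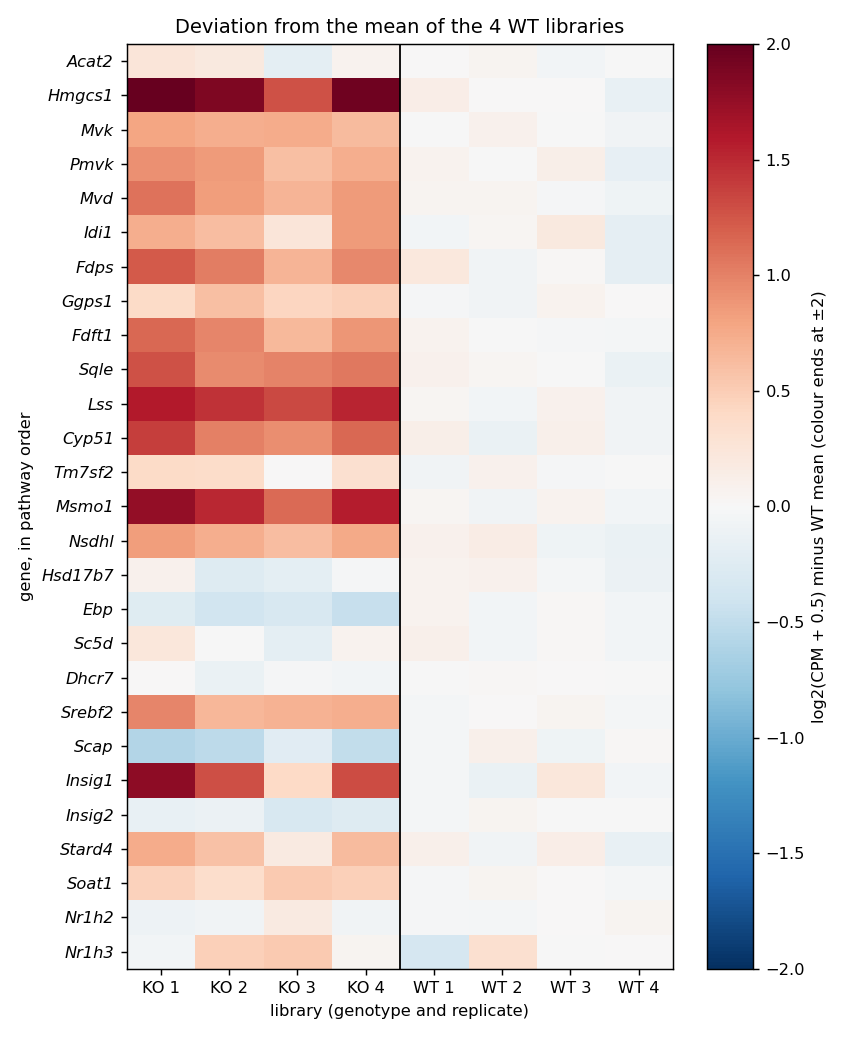
Deviation of each library from the mean of the 4 STK11 WT libraries on the log2(CPM + 0.5) scale (colour, ending at ±2) for the 27 tested genes (rows, in pathway order) and the libraries (columns, STK11 KO left of the line). The column of knockout replicate 3 is paler than those of the other knockout libraries for Hmgcs1 (1.27 against 1.87 to 2.32), Insig1 (0.41 against 1.28 to 1.78) and Stard4 (0.17 against 0.58 to 0.74).

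Within the knockout group, replicate 1 was the highest library in 12 of the 14 risen enzymes and replicate 3 the lowest in 11, while replicate 1 was the lowest for Ggps1. Replicate 1 was also the highest knockout library for Acat2, Hsd17b7, Sc5d and Dhcr7, which did not pass the test, and for Ebp, which fell. The median deviation of the 14 risen enzymes from the wild-type mean was 1.12, 0.90, 0.68 and 0.87 on the log2(CPM + 0.5) scale in knockout replicates 1 to 4, and between -0.08 and 0.06 in wild-type libraries. These enzymes were picked by their rise in the same libraries, so the gap between the groups follows from the choice. Without knockout replicate 3, 19 members rose and 3 fell, and without knockout replicate 1 the counts were 18 and 3. Replicate 3 was also the deepest library, at 25715008 counts; the part of depth in this order was not tested. Wild-type replicate 4, the shallowest library at 18837263 counts, was the lowest of its group in 13 of the 19 enzymes, within a much narrower spread.

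Levels of different genes were compared per kilobase of exon, with lengths from GENCODE M21 matched by gene ID for all 28 genes; such lengths merge all annotated isoforms and understate genes with long rare exons. On this scale Hmgcs1 (100.0 ± 28.5 CPM per kilobase, SD, n = 4) and Srebf2 (74.5 ± 7.84) were the highest in the knockout, followed by Msmo1 (59.0 ± 10.3), Fdps (42.7 ± 6.72) and Cyp51 (42.4 ± 6.05). In the wild type the highest were Srebf2 (43.6 ± 1.37 CPM per kilobase, SD, n = 4), Hmgcs1 (26.8 ± 2.10), Soat1 (21.9 ± 0.558), Fdps (21.6 ± 2.54) and Ebp (21.3 ± 0.916). Among neighbours that differed by less than the larger of their SDs were Hmgcs1 and Srebf2, Fdps and Cyp51, Cyp51 and Insig1, and Insig1 and Sqle in the knockout, and Soat1 and Fdps, Fdps and Ebp, and Ebp and Nr1h2 in the wild type. Below them all came Nr1h3 (1.65 ± 0.367 in the knockout and 1.36 ± 0.291 in the wild type), next to Mylip at 0. By their means Ebp was in place 17 of 28 in the knockout and in place 5 in the wild type, and Insig1 in place 6 in the knockout and in place 15 in the wild type, places that such neighbours leave unresolved.

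Genes around the pathway changed in both directions. In 5 companion lists, chosen with earlier results of these data known, 59 of 62 genes were tested. Of the tested genes 24 rose, 19 fell and 16 did not pass. The median log2 fold change was 0.04 over these genes and 0.74 over the 19 enzymes. The called share of these genes, 43 of 59, is to be read against 68.0% of all tested genes. With library size alone as the scaling, the split was 18 higher and 21 lower, against 3921 and 5280 of all 13707 tested genes.

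Of 12 genes for SREBP processing and turnover in the endoplasmic reticulum, 5 rose, 1 fell and 6 did not pass. Among all tested genes 68.0% passed, 34.4% upward and 33.6% downward. Srebf1, which encodes the SREBP1 factors of fatty acid synthesis, averaged 86.3 ± 9.29 CPM in knockout and 65.5 ± 4.42 CPM in wild-type libraries (SD, n = 4 each; edgeR adjusted p = 3.09e-05). Mbtps2, the protease that makes the final cut in SREBP precursors, had a log2 fold change of -0.16 ± 0.06 (SE; edgeR adjusted p = 0.0307) with overlapping groups. No gene of this list changed by 2-fold.

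Acetyl-CoA and acetoacetyl-CoA supply genes had 3 of 6 tested members higher and 2 lower, against 34.4% and 33.6% of all tested genes. Slc25a1, the mitochondrial citrate carrier, averaged 241 ± 29.7 CPM in knockout and 191 ± 3.62 CPM in wild-type libraries (SD, n = 4 each), a 1.26-fold rise (edgeR adjusted p = 0.00012). Acat1, the mitochondrial thiolase, and Aacs, which activates acetoacetate in the cytosol, were lower, at log2 fold changes of -0.38 ± 0.06 and -0.26 ± 0.06 (SE; edgeR adjusted p = 2.18e-06 and 0.000728).

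Among 8 genes for electron donors and scaffolds of the sterol enzymes, 4 fell and 2 rose, against 33.6% and 34.4% of all tested genes. The list's median log2 fold change was -0.08. Por, the reductase that feeds electrons to Cyp51 and Sqle, averaged 193 ± 20.6 CPM in knockout and 266 ± 11.4 CPM in wild-type libraries, and Cyb5a, the microsomal cytochrome b5, averaged 26.8 ± 2.40 CPM in knockout and 38.0 ± 2.23 CPM in wild-type libraries (SD, n = 4 each). Both fell, while Cyb5r1, a cytochrome b5 reductase relative, and Erg28, a scaffold of the demethylating enzymes known best from yeast, rose 1.84-fold and 1.37-fold. Erg28 had the highest adjusted p of this group of 4, 5.19e-06 by edgeR.

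In the non-sterol branches that leave from farnesyl diphosphate, 11 of 17 genes rose and 2 fell, against 34.4% and 33.6% of all tested genes. Rabggta, the alpha subunit of Rab geranylgeranyl transferase, averaged 124 ± 5.53 CPM in knockout and 65.6 ± 4.35 CPM in wild-type libraries, and Nus1, a subunit of the enzyme that makes dolichol precursors, averaged 173 ± 8.45 CPM in knockout and 112 ± 0.394 CPM in wild-type libraries (SD, n = 4 each; edgeR adjusted p = 3.54e-12 and 2.59e-10). Dolk, dolichol kinase, and Chml, a Rab escort protein, were lower, at log2 fold changes of -0.47 ± 0.11 and -0.21 ± 0.08 (SE; edgeR adjusted p = 0.000958 and 0.0358); the groups overlapped for Chml.

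In the list of cholesterol transport, storage and LXR target genes, 10 of 16 tested genes were lower and 3 higher. Among all tested genes 33.6% were lower and 34.4% higher. Gramd1a, a sterol carrier between plasma membrane and endoplasmic reticulum, averaged 4.99 ± 0.333 CPM in knockout and 30.4 ± 2.21 CPM in wild-type libraries (SD, n = 4 each), a log2 fold change of -2.60 ± 0.09 (SE; edgeR adjusted p = 1.46e-16). Stard3, an endosomal sterol transfer protein, averaged 24.1 ± 0.940 CPM in knockout and 38.2 ± 1.75 CPM in wild-type libraries (SD, n = 4 each; edgeR adjusted p = 8.51e-09). Osbpl9, an oxysterol-binding protein relative, and Npc1, which exports cholesterol from lysosomes, rose 1.63-fold and 1.43-fold (edgeR adjusted p = 1.41e-10 and 1.19e-07). Abcg1, an LXR-induced sterol exporter, named after its values were seen as the other gene that fell at least 2-fold, averaged 1.93 ± 0.379 CPM in knockout and 4.01 ± 0.358 CPM in wild-type libraries (SD, n = 4 each; edgeR adjusted p = 9.19e-06). The list's median log2 fold change was -0.22, against 0.01 for all tested genes.

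**Figure D4:**
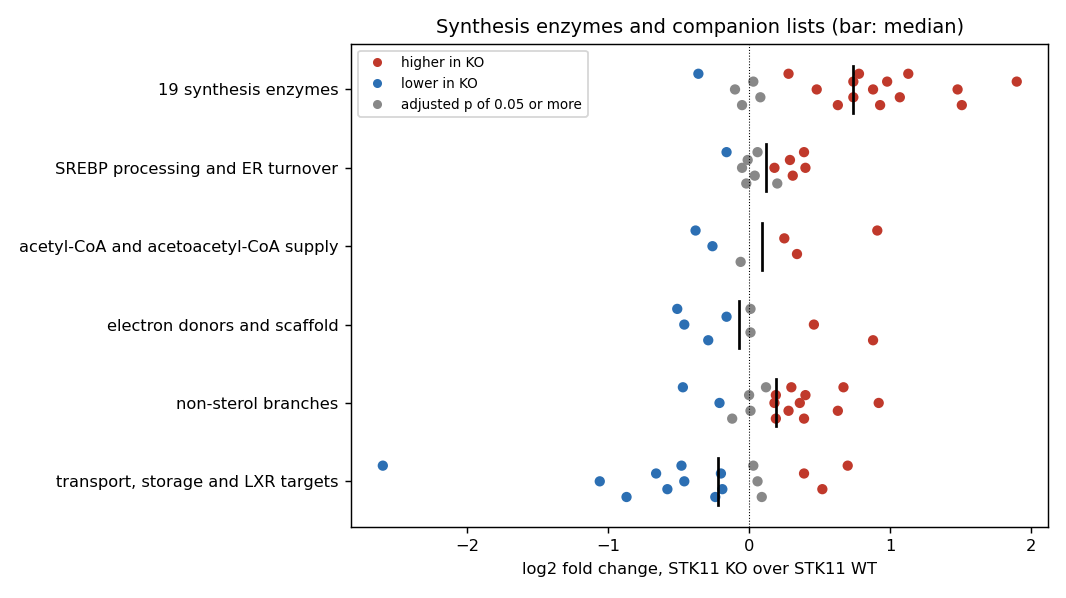
Log2 fold change, STK11 KO over STK11 WT (horizontal axis), of each tested gene (points) in the 19 synthesis enzymes and the 5 companion lists (rows), with the median of each as a black bar; red genes passed the test upward, blue ones downward and grey ones did not pass. The enzyme median lies at 0.74 and the companion medians between -0.22 and 0.19, with Gramd1a the leftmost point at -2.60.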

How the data were processed

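RNA came from 4 STK11 KO and 4 STK11 WT cultures of Lacun3 cells; per the labels' protocols, a stranded mRNA kit was used. Listed without roles in the submitters' processing notes are the build GRCm39, featureCounts 1.6.0, STAR 2.7.9a, FastQC 0.11.8, limma and edgeR. How strand and multiply mapped reads were handled is not stated there, so overlapping genes and paralogues may share or lose reads. The authors deposited raw counts for 56884 genes and a table of log2 CPM in voom's form for 15726 genes, used as an alternative. Coordinates in the count table are GRCm39.

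Counts were tested with edgeR 4.0.16 (glmQLFit with robust = TRUE and legacy = FALSE, glmQLFTest), TMM scaling, the default filterByExpr filter and genotype as the only term, in R 4.3.3, with adjustment over 13707 genes. The standard error is the absolute log2 fold change over the square root of F, and 95% intervals use the total degrees of freedom. The p-values measure the spread between cultures of these lines, not between independent knockouts. Where cultures are not truly separate, they measure only the spread between these libraries. Alternatives were other scalings, filters, DESeq2 1.42.0, limma-voom (limma 3.58.1), a test against a 1.5-fold change, the replicate number as a block and leaving out each library. The fits by edgeR, DESeq2 and limma-voom were also run on simulated counts. Far fewer genes changed there than in these data, so that run does not check the scaling used here. All members are named; in a companion list, at most 2 genes per direction, those of lowest adjusted p, plus exceptions given in the text; some genes that this rule would name are not reported here. The members and lists were chosen with earlier results of these data known. Enzymes and receptors outside these lists are not analysed here. Python packages were pandas 2.3.3, scipy 1.17.1 and matplotlib 3.10.9.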

Additional observations from a re-analysis of the deposited data

Results flagged for a closer look

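In 2 of 56 sets of 4 libraries, 1 library lay far from the other 3 in relation to the range (Dixon's test at 95%); chance flags about 1 in 20 sets. Srebf2 had 619 CPM in knockout replicate 1, against 499 to 516 CPM in the other knockout libraries; without that library its log2 fold change was 0.70 in place of 0.77. Nr1h2 had 79.5 CPM in knockout replicate 3, against 65.8 to 67.0 CPM in the other knockout libraries; without that library its log2 fold change was -0.08 (edgeR adjusted p = 0.185, the lowest among the alternatives, which reached 1).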

How the results depend on the processing

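Of 27 tested members, 13 kept their call and direction under all 18 alternatives, and 21 under the 17 other than the test against a 1.5-fold change. Under that test 12 members were higher and 0 lower, 4 and 2 companion genes, and 1360 and 1636 of all tested genes; it asks for a larger change by construction, and Ebp, Ggps1, Idi1, Insig1, Insig2, Scap, Soat1, Stard4 and Tm7sf2 lost their calls. Scaled by library size alone, which moved the median of all genes by -0.08 on the log2 scale, 17 members were higher and 4 lower: Tm7sf2 lost its call, Hsd17b7 gained one (adjusted p = 0.0355, within 0.0355 to 1), and Acat2 (-0.002) and Sc5d (-0.058) turned below 0. Leaving out 1 library gave 18 to 19 higher and 3 lower members. For Sc5d it gave -0.037 (without knockout replicate 1) to 0.099 (without knockout replicate 3) and for Nr1h2 -0.078 (without knockout replicate 3) to 0.022 (0.022, 0.015 and 0.015 without knockout replicates 1, 2 and 4, and 0.009 without wild-type replicate 4), and gave Nr1h3 a call without wild-type replicate 2 (0.44, adjusted p = 0.0489, within 0.0489 to 1); the cause was not tested. With the replicate number as a block, which the data do not show to pair the libraries (correlations of -0.121 to 0.0352), 18 members were higher and 3 lower, and 24 companion genes higher and 18 lower. Mylip, at 0 counts, and genes near 1 CPM are limited by depth.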
